A study of Mus musculus with 6 samples.

Results

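The enzymes that make leukotrienes and prostaglandins from arachidonic acid were examined in long-term (LT) stem cells of chronic myelogenous leukaemia (CML). The 10 genes Alox5, Alox5ap, Lta4h, Ltc4s, Alox12, Alox15, Ptgs1, Ptgs2, Hpgds and Tbxas1 were taken by symbol from a table of 36976 genes, and all 10 were found and passed the filter for testing. RNA-Seq had been performed on 6 libraries from C57BL/6 mice, 3 Gdpd3+/+ (replicates 1 to 3) and 3 Gdpd3-/- (replicates 5 to 7), to ask how loss of Gdpd3, a lysophospholipase D enzyme, alters these cells. Mice of both genotypes carried SCL-tTA and TRE-BCR-ABL1, so that BCR-ABL1 was switched on by tTA in SCL-expressing blood cells once doxycycline was withdrawn at 5 weeks of age, and cells were taken 5 weeks after that induction. Gdpd3-/- mice carried a small genome-edited deletion in Gdpd3. Cells with the CD150+CD48-CD135- Lineage-Sca-1+c-Kit+ surface profile were sorted from bone marrow and pooled over animals, 22 males and 12 females for Gdpd3+/+ and 5 males and 5 females for Gdpd3-/-. Each p-value below therefore measures the spread between pooled samples.

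Arachidonic acid freed from membrane lipid enters this network by separate routes. The 5-lipoxygenase Alox5, helped by its membrane partner Alox5ap, makes leukotriene A4, which Lta4h turns into the neutrophil attractant leukotriene B4 and Ltc4s joins to glutathione to start the cysteinyl leukotrienes. Alox12 and Alox15 place oxygen elsewhere on the chain, whereas the cyclooxygenases Ptgs1 and Ptgs2 make prostaglandin H2, which Hpgds turns into prostaglandin D2 and Tbxas1 into thromboxane A2. In blood these enzymes are best known from mature neutrophils, eosinophils, mast cells and platelets.

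The values are FPKM, read coverage scaled to gene length and to the depth of the library. Inferred depth was 4.98 to 6.28 gigabases of covered bases in Gdpd3+/+ and 2.13 to 3.64 in Gdpd3-/-, so low values are less precise in Gdpd3-/-. Gdpd3 stood at 2.95 to 7.30 FPKM in Gdpd3+/+ and at 0.0129 to 0.681 in Gdpd3-/-, with no overlap, and replicate 7 was the highest of the Gdpd3-/- libraries. All 10 markers of LT stem cells were detected in every library, with a summed FPKM of 663 to 741 in Gdpd3+/+ and 697 to 929 in Gdpd3-/-. Flt3 encodes the CD135 antigen, which the sort selected against. It was also detected, at 9.80 to 11.0 FPKM in Gdpd3+/+ and 36.8 to 46.5 in Gdpd3-/-. Cd48, whose antigen the sort selected against as well, lay at 39.8 to 44.8 and 51.6 to 92.2 FPKM, with no overlap. Marker genes of mature cells were detected as well, and their values are given beside the enzymes. Of the lists that no enzyme is set beside, monocyte and macrophage genes summed to 75.5 to 93.8 FPKM in Gdpd3+/+ and 83.7 to 104 in Gdpd3-/-. Erythroid genes summed to 3157 to 4971 and 1964 to 4941, and T and NK cell genes to 388 to 462 and 168 to 334. The T and NK sum was dominated by Nkg7, at 382 to 457 and 149 to 313 FPKM. Of these 10 T and NK genes, 2 were higher in every Gdpd3-/- library (Gzma and Trbc1), beside 23.5% of all genes tested. In the other direction 1 was lower, Nkg7, beside 8.27%. Progenitor genes, with Flt3 among them, summed to 2160 to 2443 and 734 to 1397. That sum was dominated by Mpo, at 1889 to 2175 and 287 to 800 FPKM. Of these 8 progenitor genes, 6 were higher in every Gdpd3-/- library, beside 23.5% of all genes tested, and 1 was lower, Mpo, beside 8.27%. At an adjusted p under 0.05 by limma, 4 of the 8 were higher, beside 1.09% of all genes, and 0 were lower, beside 0.616%. In bulk RNA, fewer cells of a type and less RNA per cell cannot be told apart.

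Of the 10 enzymes, 1 fell in Gdpd3-/- cells, Lta4h, at an adjusted p under 0.05 (limma on log2(FPKM + 0.1), Benjamini-Hochberg over all genes tested), beside 0.616% of the 24689 genes tested. By limma 0 rose, beside 1.09% of all genes, and 7 of the 10 had an unadjusted p under 0.05, beside 22.2% of all genes. The genotypes did not overlap for 8 enzymes: 4 were lower in every Gdpd3-/- library (Lta4h, Alox5, Alox15 and Ptgs1), beside 8.27% of all genes, and 4 were higher (Ltc4s, Alox12, Alox5ap and Tbxas1), beside 23.5%. The median log2 fold change of all 10 enzymes was -0.13, against 0.24 over all genes tested. That general shift depended on the scaling, and was 0.04 with TMM scaling and -0.01 with quantile normalization.

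**Figure D1:**
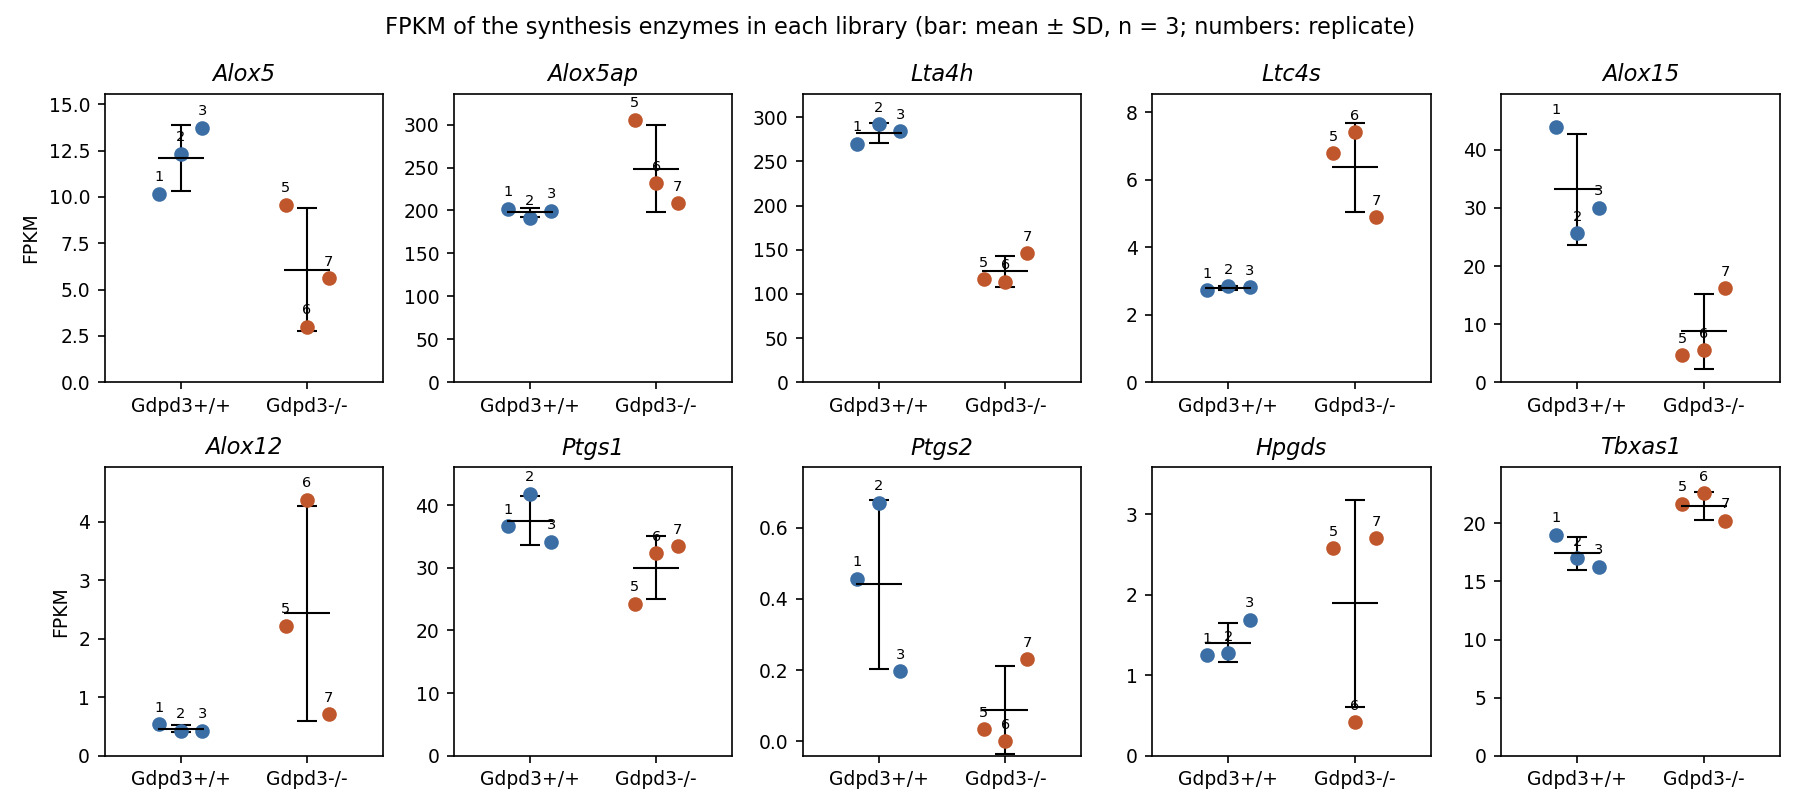
FPKM (vertical axis, linear, a scale for each gene) of the 10 enzymes in each library, with points numbered by replicate and bars for the mean ± SD of 3 libraries. Lta4h lay at 270 to 292 in Gdpd3+/+ and 114 to 146 in Gdpd3-/-, whereas Ptgs2 and Hpgds overlapped between the genotypes.

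The enzymes that act on leukotriene A4 differed in opposite directions, of which only the fall in Lta4h passed the test. Lta4h, leukotriene A4 hydrolase, was the most abundant of the 10 enzymes in Gdpd3+/+, and its level in Gdpd3-/- was 2.25-fold lower, while Ltc4s, leukotriene C4 synthase, stood 2.28-fold higher without passing the test. Alox5ap, which presents arachidonic acid to 5-lipoxygenase, stood 1.26-fold higher, and Alox5 itself was on average 1.99-fold lower with a wide spread.

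Lta4h (ENSMUSG00000015889.7, chr10:92916141-92947641, plus strand, mm9) was listed at 270, 292 and 284 FPKM in Gdpd3+/+ replicates 1, 2 and 3, and at 116, 114 and 146 in Gdpd3-/- replicates 5, 6 and 7. The libraries of each genotype lay close together, and the highest Gdpd3-/- value was well under the lowest Gdpd3+/+ value. The means were 282 ± 11.3 and 125 ± 17.8 FPKM (SD, n = 3), a log2 fold change of -1.18 (SE 0.12, limma adjusted p = 0.0196). The call needed all 3 Gdpd3+/+ libraries: without Gdpd3+/+ replicate 1, 2 or 3 the adjusted p was 0.138, 0.136 or 0.145, with log2 fold changes of -1.15 to -1.21, in fits that called 0.00%, 0.00402% or 0.0523% of all genes lower, whereas it was 0.00421 without Gdpd3-/- replicate 7.

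Ltc4s (chr11:50049971-50052118, minus strand, mm9) was listed at 2.72, 2.85 and 2.82 FPKM in Gdpd3+/+ and at 6.78, 7.41 and 4.89 in Gdpd3-/-. All Gdpd3-/- libraries were above all Gdpd3+/+ libraries, with replicate 7 nearest to them. The means of 2.79 ± 0.0676 and 6.36 ± 1.31 FPKM (SD, n = 3) gave a log2 fold change of 1.14 (SE 0.21, limma adjusted p = 0.0567), which passed the threshold at 0.0119 without Gdpd3-/- replicate 7, where 9.83% of all genes were called higher. With any other library left out its adjusted p was 0.0672 to 0.269. Ltc4s shares 192 of its 736 exon bases with Gm16641, a non-coding gene on the opposite strand, and the library kit does not mark strand, so the reads they share cannot be told apart. Gm16641 was listed at 1.21, 1.85 and 1.24 FPKM in Gdpd3+/+ and at 4.03, 3.12 and 2.07 in Gdpd3-/-, with no overlap and the same direction.

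The ratio between these enzymes, both in FPKM, does not change when a library is scaled by a single factor, though quantile normalization can change it. Lta4h over Ltc4s was 99.3, 103 and 101 in Gdpd3+/+ and 17.1, 15.4 and 29.8 in Gdpd3-/- (exact permutation test, 2-sided, p = 0.1, the smallest that 3 libraries against 3 allow). Lta4h was already lower and Ltc4s higher in every Gdpd3-/- library, so this p was fixed in advance and adds no evidence. The hydrolase remained the more abundant transcript in all 6 libraries, by a smaller margin in every Gdpd3-/- library.

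Alox5 (chr6:116360095-116411196, minus strand, mm9) was listed at 10.2, 12.3 and 13.7 FPKM in Gdpd3+/+ and at 9.58, 2.98 and 5.62 in Gdpd3-/-. Replicate 5 lay just under the lowest Gdpd3+/+ library and replicate 6 far below it. The log2 fold change was -1.12 (SE 0.40, limma adjusted p = 0.171), with an adjusted p of 0.0874 to 0.445 when each library in turn was left out. Alox5ap (chr5:150076634-150099621, plus strand, mm9) was listed at 202, 192 and 200 FPKM in Gdpd3+/+ and at 306, 232 and 208 in Gdpd3-/-. Its log2 fold change of 0.31 (95% interval -0.05 to 0.67, limma adjusted p = 0.279) was 0.07 above the median of all genes (0.05 with TMM scaling and 0.12 with quantile normalization). Alox5ap over Lta4h was 0.749, 0.656 and 0.703 in Gdpd3+/+ and 2.63, 2.04 and 1.43 in Gdpd3-/- (exact permutation p = 0.1). Here too the p was fixed, as Alox5ap was already higher and Lta4h lower in every Gdpd3-/- library. The activating protein was the less abundant of the pair in every Gdpd3+/+ library and the more abundant in every Gdpd3-/- library.

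Most markers of neutrophils, cells rich in 5-lipoxygenase and leukotriene A4 hydrolase, were also lower. Of 10 such genes 8 lay lower in every Gdpd3-/- library, beside 8.27% of all genes, and 5 of them passed the test, beside 0.616%. Ly6g and Retnlg overlapped between the genotypes. Their Gdpd3+/+ and Gdpd3-/- means were 29.99 and 29.97 FPKM for Ly6g and 413 and 303 for Retnlg. The summed FPKM of all 10 was 27442 to 30887 in Gdpd3+/+ against 13928, 7707 and 8689 in Gdpd3-/- replicates 5, 6 and 7. The Gdpd3-/- libraries stood in the same order for Alox5 (5, then 7, then 6), but not for Lta4h, which was highest in replicate 7. Their part in the results for Alox5 and Lta4h was not tested. No neutrophil marker was at 0 in any library.

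The genes whose profile over the 6 libraries lay nearest to that of Alox5, among 15102 with a mean of at least 1 FPKM, were Gm15200, B230208H11Rik and Mocos, with root mean square log2 distances of 0.146, 0.154 and 0.194 after each gene was centred on its own mean. Mocos, a molybdenum cofactor sulphurase, was listed at 2.49, 2.40 and 2.75 FPKM in Gdpd3+/+ and at 2.57, 0.486 and 1.28 in Gdpd3-/-. It too was lowest in replicate 6.

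Start-site windows of 300 bases were found for 8 of the 10 enzymes in a RefSeq table (GRCm38.p6, a later build than that of the deposited coordinates). Those of the leukotriene enzymes whose genotypes did not overlap, other than Alox5ap, are shown 5′ to 3′ on the gene's own strand: Alox5 at chr6:116461129-116461428 (minus strand), Lta4h at chr10:93453146-93453445 (plus strand) and Ltc4s at chr11:50238483-50238782 (minus strand). Capitals mark the GC box GGGCGG, the core of Sp1-type sites, searched on both strands.
Alox5: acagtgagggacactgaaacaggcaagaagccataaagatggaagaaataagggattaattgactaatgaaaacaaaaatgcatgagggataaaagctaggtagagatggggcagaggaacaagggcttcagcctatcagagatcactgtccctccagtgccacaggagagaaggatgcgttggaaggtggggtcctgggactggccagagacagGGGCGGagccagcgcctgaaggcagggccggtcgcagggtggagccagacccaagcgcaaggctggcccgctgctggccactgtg
Lta4h: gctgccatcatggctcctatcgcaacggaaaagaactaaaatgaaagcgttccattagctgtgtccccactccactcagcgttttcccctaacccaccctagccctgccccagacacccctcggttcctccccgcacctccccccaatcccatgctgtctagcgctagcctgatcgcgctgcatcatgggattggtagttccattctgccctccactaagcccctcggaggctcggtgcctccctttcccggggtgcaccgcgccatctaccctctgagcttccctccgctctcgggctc
Ltc4s: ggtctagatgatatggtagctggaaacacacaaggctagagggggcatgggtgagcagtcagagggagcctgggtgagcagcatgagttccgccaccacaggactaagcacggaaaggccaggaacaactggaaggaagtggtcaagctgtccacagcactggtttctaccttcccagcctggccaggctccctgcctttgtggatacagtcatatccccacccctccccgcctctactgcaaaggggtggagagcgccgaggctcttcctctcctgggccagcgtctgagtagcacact
The GC box occurred in 3 of the 8 windows (Alox5, Ptgs2 and Alox12) and in 35.7% of the 32851 windows in the table. It was in the Alox5 window 1 time and in neither the Lta4h nor the Ltc4s window. The TATA box TATAAA, also searched on both strands, was found only in the window of Tbxas1 among the 8, and in 13.6% of all windows.

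The lipoxygenases that act elsewhere on the chain differed in opposite directions. Alox15, the leukocyte 12/15-lipoxygenase of the mouse, was 3.79-fold lower on average in Gdpd3-/- cells, and Alox12, the platelet-type 12-lipoxygenase, was 5.26-fold higher. Neither passed the test with all 6 libraries. The genes lie on the same strand of chromosome 11, 88798 bases apart in mm9, with Alox12e as the 1 gene listed between them.

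Alox15 (ENSMUSG00000018924.6, chr11:70157654-70165533, minus strand, mm9) was listed at 43.9, 25.7 and 30.01 FPKM in Gdpd3+/+ and at 4.62, 5.48 and 16.2 in Gdpd3-/-. Replicates 5 and 6 were far below every Gdpd3+/+ library, and replicate 7 lay in between. The means of 33.2 ± 9.54 and 8.76 ± 6.43 FPKM (SD, n = 3) gave a log2 fold change of -2.11 (SE 0.48, limma adjusted p = 0.0802). Without Gdpd3-/- replicate 7 it was -2.66 with an adjusted p of 0.00749, in a fit where 4.36% of all genes were called lower. With any other library left out the adjusted p was 0.114 to 0.288.

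Alox12 (chr11:70054959-70068855, minus strand, mm9) was listed at 0.535, 0.430 and 0.426 FPKM in Gdpd3+/+ and at 2.22, 4.38 and 0.709 in Gdpd3-/-. The Gdpd3+/+ libraries were nearly level, and the Gdpd3-/- libraries differed widely among themselves. The log2 fold change was 1.86 (SE 0.64, limma adjusted p = 0.159). Without replicate 7 it was 2.52 with an adjusted p of 0.0212, where 9.83% of all genes were called higher. Without replicate 6 it was 1.29, and the adjusted p was 0.195 to 0.413 with any library other than replicate 7 left out. The start-site window of Alox12 (chr11:70255321-70255620, minus strand, GRCm38.p6) held 3 GC boxes, again in capitals, the most among the 8 windows.
Alox12: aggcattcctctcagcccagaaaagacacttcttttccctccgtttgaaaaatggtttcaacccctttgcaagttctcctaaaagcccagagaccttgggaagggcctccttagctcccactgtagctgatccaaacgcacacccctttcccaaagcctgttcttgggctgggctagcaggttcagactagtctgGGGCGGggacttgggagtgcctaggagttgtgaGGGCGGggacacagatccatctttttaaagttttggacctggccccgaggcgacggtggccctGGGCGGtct

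Alox15 over Alox12, both in FPKM, was 82.2, 59.8 and 70.5 in Gdpd3+/+ and 2.08, 1.25 and 22.8 in Gdpd3-/- (exact permutation p = 0.1). That p was fixed as well, since Alox15 was already lower and Alox12 higher in every Gdpd3-/- library. Alox15 was the more abundant of the pair in all 6 libraries, though only barely in Gdpd3-/- replicate 6. Alox12e, an epidermal-type lipoxygenase, overlapped between the genotypes, at 0.932, 0.276 and 0.820 FPKM in Gdpd3+/+ and 0, 1.87 and 0.577 in Gdpd3-/-.

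Eosinophil genes were lower in Gdpd3-/-, as Alox15 was. All 9 of 9 eosinophil markers lay lower in every Gdpd3-/- library, beside 8.27% of all genes, and none was at 0 in any library. By limma 0 of them passed the test, beside 0.616% of all genes called lower, and 8 had an unadjusted p under 0.05, beside 22.2%. Their summed FPKM was 3515, 2809 and 3532 in Gdpd3+/+ and 471, 1358 and 1985 in Gdpd3-/- replicates 5, 6 and 7. The order was that of Alox15 in Gdpd3-/- but not in Gdpd3+/+. The profiles nearest to that of Alox15 were those of Gm16734 (an immunoglobulin joining segment now listed as Ighj4), Gpm6a and Ear10, at distances of 0.271, 0.276 and 0.293. Ear10 belongs to the eosinophil-associated ribonucleases. It was listed at 22.9, 17.5 and 19.9 FPKM in Gdpd3+/+ and at 2.67, 5.36 and 12.8 in Gdpd3-/-. Of 10 genes of B and plasma cells, 5 were lower in every Gdpd3-/- library, beside 8.27% of all genes, and 1 was higher, beside 23.5%. They summed to 36623 to 39866 FPKM in Gdpd3+/+ and to 14084, 9445 and 19401 in Gdpd3-/- replicates 5, 6 and 7. Among these, Pax5 was at 0 in replicates 5 and 6, and Ms4a1 was at 0 in replicate 6.

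Genes of skeletal muscle varied between libraries as Alox12 did. All 12 of 12 skeletal muscle genes were higher in every Gdpd3-/- library, beside 23.5% of all genes, and none was at 0 in any library. By limma 0 of them passed the test, beside 1.09% of all genes called higher, and 12 had an unadjusted p under 0.05, beside 22.2%. Their summed FPKM was 969 to 1431 in Gdpd3+/+ and 12474, 17872 and 2376 in Gdpd3-/- replicates 5, 6 and 7. Within Gdpd3-/-, both Alox12 and Ltc4s were highest in replicate 6, then in 5, then in 7, as the muscle genes were. Within Gdpd3+/+ the muscle sum was highest in replicate 1 (1431), where Alox12 was highest (0.535 FPKM) but Ltc4s was lowest (2.72 FPKM). Platelet genes overlapped between the genotypes for all 10 genes of their list, and Gp6 was at 0 in all 6 libraries. Their summed FPKM was 226 to 330 in Gdpd3+/+ and 206, 512 and 219 in Gdpd3-/- replicates 5, 6 and 7. The platelet sum, like Alox12, was thus highest in replicate 6, where most of it was Pf4 (310 FPKM) and Ppbp (95.7 FPKM). Within Gdpd3+/+ the platelet sum was instead lowest in replicate 1 (226, against 329 and 330), where Alox12 was highest. The part of eosinophil, B and plasma cell, muscle or platelet RNA in the values of Alox15, Alox12 and Ltc4s was not tested.

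**Figure D2:**
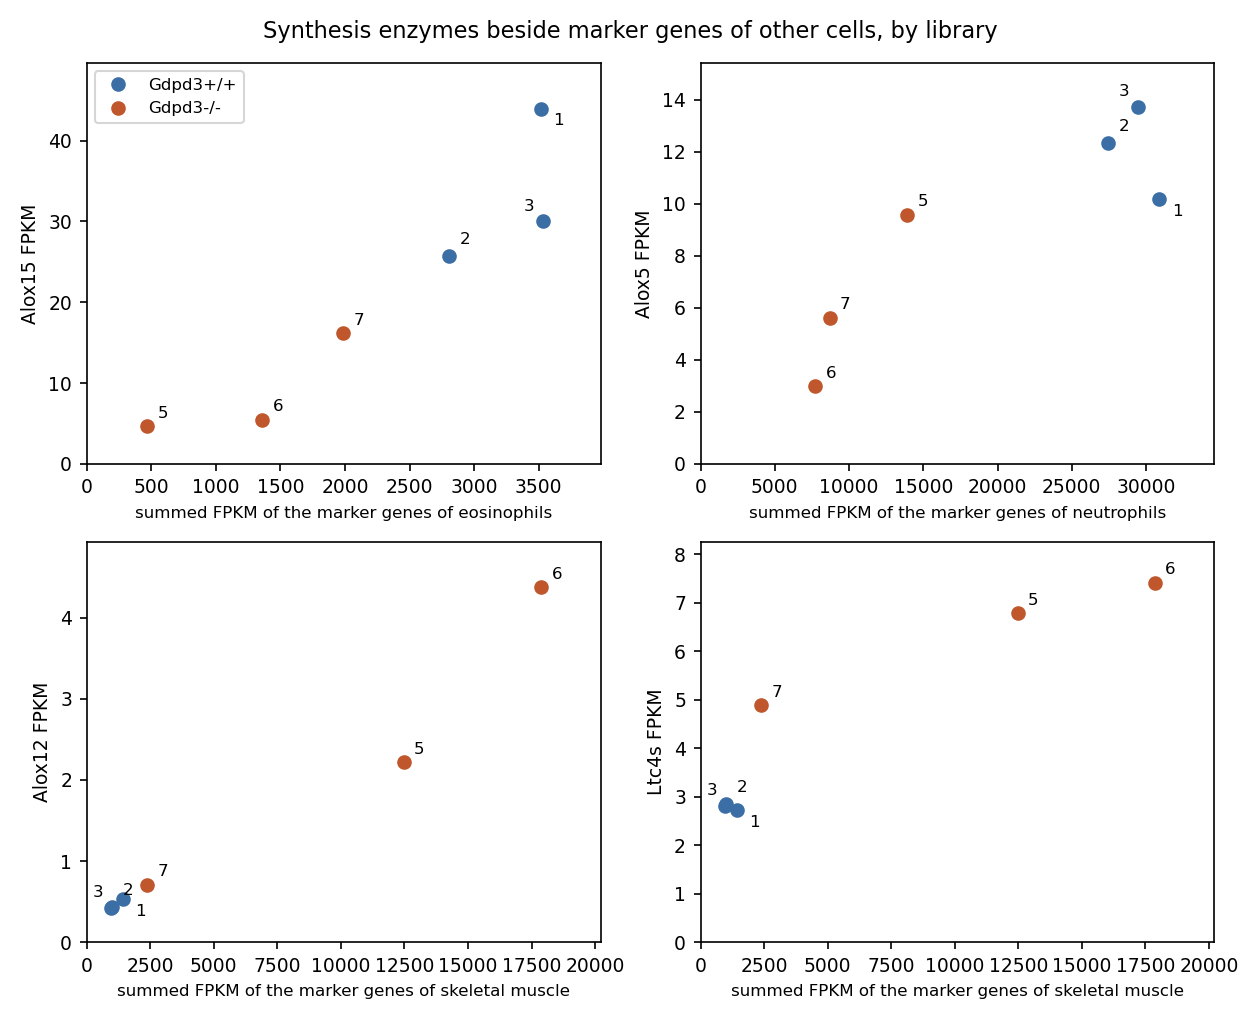
FPKM of Alox15, Alox5, Alox12 and Ltc4s (vertical axes) against the summed FPKM of marker genes of eosinophils, neutrophils and skeletal muscle (horizontal axes), with 1 point for each of 6 libraries, numbered by replicate. Alox15 and the eosinophil sum were both lowest in replicate 5 (4.62 and 471), and Alox12 and the muscle sum were both highest in replicate 6 (4.38 and 17872).

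The cyclooxygenases were unequal in level. Ptgs1, the constitutive cyclooxygenase, was abundant in all libraries, whereas Ptgs2, the inducible form, was near the limit of detection. Neither differed past the test.

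Ptgs1 (chr2:36085946-36107792, plus strand, mm9) was listed at 36.7, 41.8 and 34.1 FPKM in Gdpd3+/+ and at 24.3, 32.3 and 33.4 in Gdpd3-/-. The genotypes were separated by less than 1 FPKM, between Gdpd3+/+ replicate 3 and Gdpd3-/- replicate 7. The log2 fold change was -0.33 (95% interval -0.70 to 0.04, limma adjusted p = 0.267), that is, 0.57 below the median of all genes. Ptgs2 (chr1:151947254-151955140, plus strand, mm9) was listed at 0.456, 0.669 and 0.197 FPKM in Gdpd3+/+ and at 0.0339, 0 and 0.230 in Gdpd3-/-. Those values correspond to about 62.7, 116 and 33.3 reads of 150 bases in Gdpd3+/+ and to 2, 0 and 16 in Gdpd3-/-. The genotypes overlapped through replicates 3 and 7 (log2 fold change -1.61, SE 0.66, limma adjusted p = 0.216, and exact permutation p = 0.2).

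Of the terminal prostanoid synthases, Tbxas1 was well expressed and Hpgds was not. Tbxas1, thromboxane A synthase (chr6:38825403-39034584, plus strand, mm9), was listed at 19.0, 17.0 and 16.2 FPKM in Gdpd3+/+ and at 21.7, 22.6 and 20.2 in Gdpd3-/-. Its Gdpd3-/- libraries were close together and all above the Gdpd3+/+ ones, by a small margin. The log2 fold change of 0.30 (95% interval 0.03 to 0.57, limma adjusted p = 0.185) was 0.06 above the median of all genes (0.04 with TMM scaling and 0.20 with quantile normalization). Tbxas1 over Ptgs1 was 0.519, 0.407 and 0.476 in Gdpd3+/+ and 0.894, 0.699 and 0.606 in Gdpd3-/- (exact permutation p = 0.1), without overlap. Tbxas1 was already higher and Ptgs1 lower in every Gdpd3-/- library, which fixed this p and the lack of overlap.

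Hpgds, haematopoietic prostaglandin D synthase (chr6:65067287-65094902, minus strand, mm9), was listed at 1.25, 1.28 and 1.69 FPKM in Gdpd3+/+ and at 2.57, 0.413 and 2.70 in Gdpd3-/-. Replicate 6 was under and replicates 5 and 7 were over every Gdpd3+/+ library. The log2 fold change was 0.07 (95% interval -1.56 to 1.70, limma adjusted p = 0.958), negative with TMM scaling and quantile normalization, so no direction can be given. Genes of basophils and mast cells, which make prostaglandin D2 and cysteinyl leukotrienes, had a summed FPKM of 159 to 283 in Gdpd3+/+ and 394 to 503 in Gdpd3-/-. Of the 10 genes, 4 were higher in every Gdpd3-/- library, beside 23.5% of all genes, and 1 was lower, Hdc, beside 8.27%. Cpa3 passed the test as higher, beside 1.09% of all genes, and Hdc as lower, beside 0.616%. No basophil or mast cell gene of the list was at 0 in any library, and their part in the values of Hpgds and Ltc4s was not tested.

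**Figure D3:**
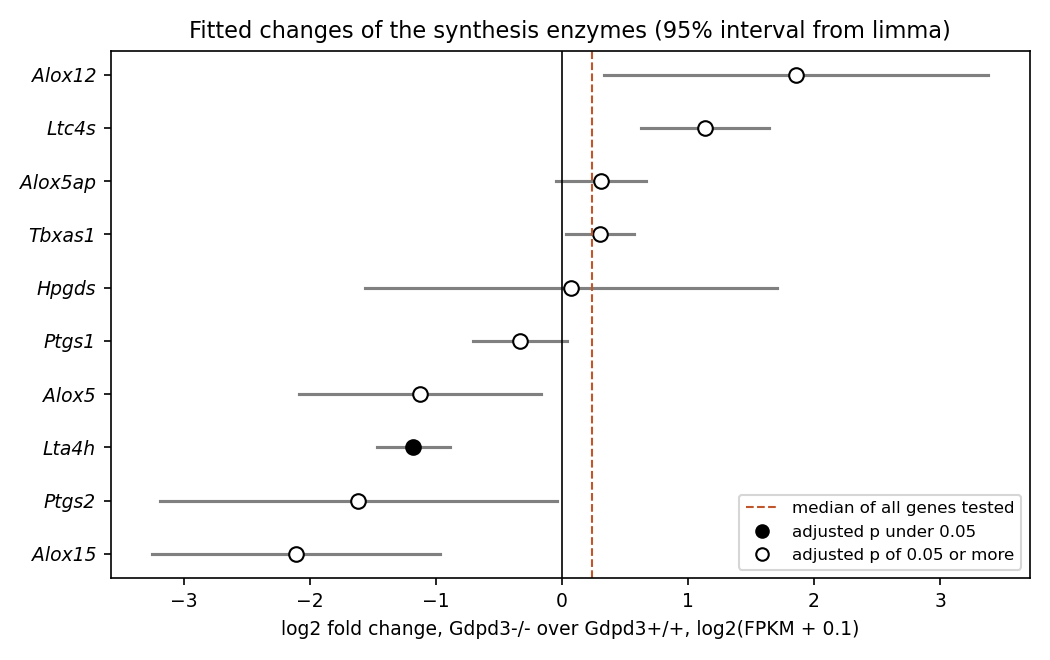
Log2 fold change of Gdpd3-/- over Gdpd3+/+ on the log2(FPKM + 0.1) scale (horizontal axis) of the 10 enzymes, with 95% intervals from limma, filled where the adjusted p was under 0.05, and a dashed line at the median of all genes tested, 0.24. The interval of Lta4h runs from -1.47 to -0.89, and that of Hpgds from -1.56 to 1.70.

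Set in order of mean FPKM, the Gdpd3+/+ enzymes ran from Lta4h (282) through Alox5ap (198), Ptgs1 (37.5), Alox15 (33.2), Tbxas1 (17.4), Alox5 (12.1), Ltc4s (2.79), Hpgds (1.40) and Alox12 (0.463) to Ptgs2 (0.441). The neighbours Ptgs1 and Alox15, and Alox12 and Ptgs2, overlapped between libraries. In Gdpd3-/- the order was Alox5ap (249), Lta4h (125), Ptgs1 (29.99), Tbxas1 (21.5), Alox15 (8.76), Ltc4s (6.36), Alox5 (6.06), Alox12 (2.44), Hpgds (1.90) and Ptgs2 (0.0881). There the neighbours from Alox15 to Ltc4s, Alox5, Alox12 and Hpgds overlapped, and the others did not.

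Other genes of these pathways were also examined. Of 48 genes chosen, 47 were in the table (Prxl2b was not matched) and 41 were tested. By limma 1 of the 41 fell, Ltb4r1, beside 0.616% of all genes, and 1 rose, Ggt5, beside 1.09%. Without overlap, 8 of the 41 were lower, beside 8.27% of all genes, and 10 were higher, beside 23.5%. The median log2 fold change of all 41 was 0.18. Without Gdpd3-/- replicate 7, 13 of the 41 were called, in a fit that called 9.83% of all genes higher and 4.36% lower. Called higher were Ggt5, Dpep1, Mgst3, Ptgds, Ptges2, Tbxa2r and Dpep2, and called lower were Ltb4r1, Ptgr1, Abcc4, Cysltr1, Ptger2 and Plaa. The omitted replicate 7 went the other way for Cysltr1 (0.781 FPKM, Gdpd3+/+ 0.270 to 0.418), Ptger2 (1.34, Gdpd3+/+ 0.627 to 0.768) and Dpep2 (0.272, Gdpd3+/+ 0.635 to 0.668). For Plaa it lay within the Gdpd3+/+ range, and the others did not overlap.

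The high-affinity leukotriene B4 receptor Ltb4r1 fell alongside Lta4h, the enzyme that makes its ligand. It was listed at 47.3, 49.0 and 47.8 FPKM in Gdpd3+/+ and at 16.1, 6.81 and 16.8 in Gdpd3-/-, with a log2 fold change of -1.96 (SE 0.34, limma adjusted p = 0.0487). Mature neutrophils carry much of this receptor. As given above, 8 of 10 neutrophil markers were lower, whereas Ly6g and Retnlg overlapped. The part of these cells in the value of Ltb4r1 was not tested. Its adjusted p was 0.0185 to 0.244 with each library left out in turn, and over 0.05 without Gdpd3+/+ replicate 1 (0.239), 2 (0.225) or 3 (0.244) or Gdpd3-/- replicate 5 (0.0746). Of 12 receptors tested, Ltb4r1 was the only one called, beside 0.616% of all genes called lower and 1.09% called higher. The thromboxane receptor Tbxa2r was listed at 9.27, 10.8 and 11.3 FPKM in Gdpd3+/+ and at 18.5, 15.7 and 17.8 in Gdpd3-/- (log2 fold change 0.72, limma adjusted p = 0.0567). The prostaglandin E receptor Ptger1 lay at 5.07 to 5.37 and 5.71 to 8.45 FPKM, and the prostacyclin receptor Ptgir at 1.14 to 2.27 and 0.00824 to 1.09. The other receptors tested overlapped between the genotypes.

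Downstream of Ltc4s, the cysteinyl leukotrienes are trimmed by gamma-glutamyl transferases and dipeptidases. Ggt5, the transferase that acts on leukotriene C4, rose from 1.48, 1.82 and 1.56 FPKM in Gdpd3+/+ to 3.96, 5.97 and 4.13 in Gdpd3-/- (log2 fold change 1.46, SE 0.25, limma adjusted p = 0.0487). It was highest in replicate 6, the library with the highest muscle sum, but was not lowest in replicate 7. The call was lost without Gdpd3+/+ replicate 1 (0.243), 2 (0.217) or 3 (0.252) and without Gdpd3-/- replicate 5 (0.0700) or 6 (0.0527), and also with TMM scaling and quantile normalization. Its relative Ggt1 was at 0.153 to 0.660 and 0.781 to 1.19 FPKM. Dpep1, a leukotriene D4 dipeptidase, was at 0 to 0.109 and 0.337 to 1.56 FPKM, which in Gdpd3+/+ amounts to no more than about 10 reads.

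The glutathione transferases related to Ltc4s differed from each other in direction, neither past the test, and Mgst3 lay higher in Gdpd3-/- as Ltc4s did. Mgst2 was listed at 8.95, 9.998 and 12.5 FPKM in Gdpd3+/+ and at 3.18, 6.85 and 3.86 in Gdpd3-/- (log2 fold change -1.22, limma adjusted p = 0.0902). Mgst3 was listed at 37.0, 29.4 and 36.2 FPKM in Gdpd3+/+ and at 144, 234 and 49.5 in Gdpd3-/- (log2 fold change 1.80, limma adjusted p = 0.117), the order of the muscle genes, whose part in it was not tested. Cyp4f18, which inactivates leukotriene B4, was listed at 17.6, 15.5 and 18.2 FPKM in Gdpd3+/+ and at 10.9, 4.25 and 10.6 in Gdpd3-/- (log2 fold change -1.10, limma adjusted p = 0.145). The 5-lipoxygenase partner Cotl1 lay at 29.9 to 34.3 and 23.4 to 29.6 FPKM. Of the 9 genes of this list tested, 1 rose by limma, beside 1.09% of all genes, and 0 fell, beside 0.616%. An unadjusted p under 0.05 was found for 6 of the 9, beside 22.2% of all genes.

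None of the other prostanoid synthases, the lipoxygenases outside the 10, the phospholipases that free arachidonic acid or the breakdown and export genes passed the test. Those lists held 7, 3, 4 and 6 genes tested, of which 2, 0, 1 and 2 had an unadjusted p under 0.05, beside 22.2% of all genes. Ptgds, the lipocalin-type prostaglandin D synthase, was listed at 0.707, 0.957 and 0.792 FPKM in Gdpd3+/+ and at 3.16, 2.28 and 1.62 in Gdpd3-/- (log2 fold change 1.38, limma adjusted p = 0.0920). Its libraries did not overlap, in contrast to Hpgds, which makes the same product. Ptges2, a prostaglandin E synthase, lay at 12.1 to 14.4 and 16.2 to 28.9 FPKM (log2 fold change 0.82, limma adjusted p = 0.109). Akr1b3, Ptges3 and Aloxe3 did not overlap either, at 31.9 to 35.8 and 37.9 to 41.9 FPKM, 70.9 to 83.0 and 63.3 to 70.8 FPKM, and 0 to 0.0450 and 0.112 to 0.702 FPKM.

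Ptgr1, a reductase that inactivates leukotriene B4 and prostaglandin metabolites, was listed at 34.8, 31.9 and 33.8 FPKM in Gdpd3+/+ and at 13.7, 20.9 and 19.1 in Gdpd3-/- (log2 fold change -0.92, SE 0.17, limma adjusted p = 0.056). It was called lower with TMM scaling and with quantile normalization. Abcc4, an exporter of prostaglandins and leukotrienes, lay at 10.9 to 11.7 and 6.53 to 8.86 FPKM (log2 fold change -0.53, limma adjusted p = 0.116). The cytosolic phospholipase Pla2g4a, which frees arachidonic acid, was listed at 17.9, 20.6 and 19.9 FPKM in Gdpd3+/+ and at 16.2, 24.4 and 19.6 in Gdpd3-/-. The genotypes overlapped throughout (log2 fold change 0.02, SE 0.17, limma adjusted p = 0.943), and no difference was detectable with 3 libraries of each genotype.

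**Figure D4:**
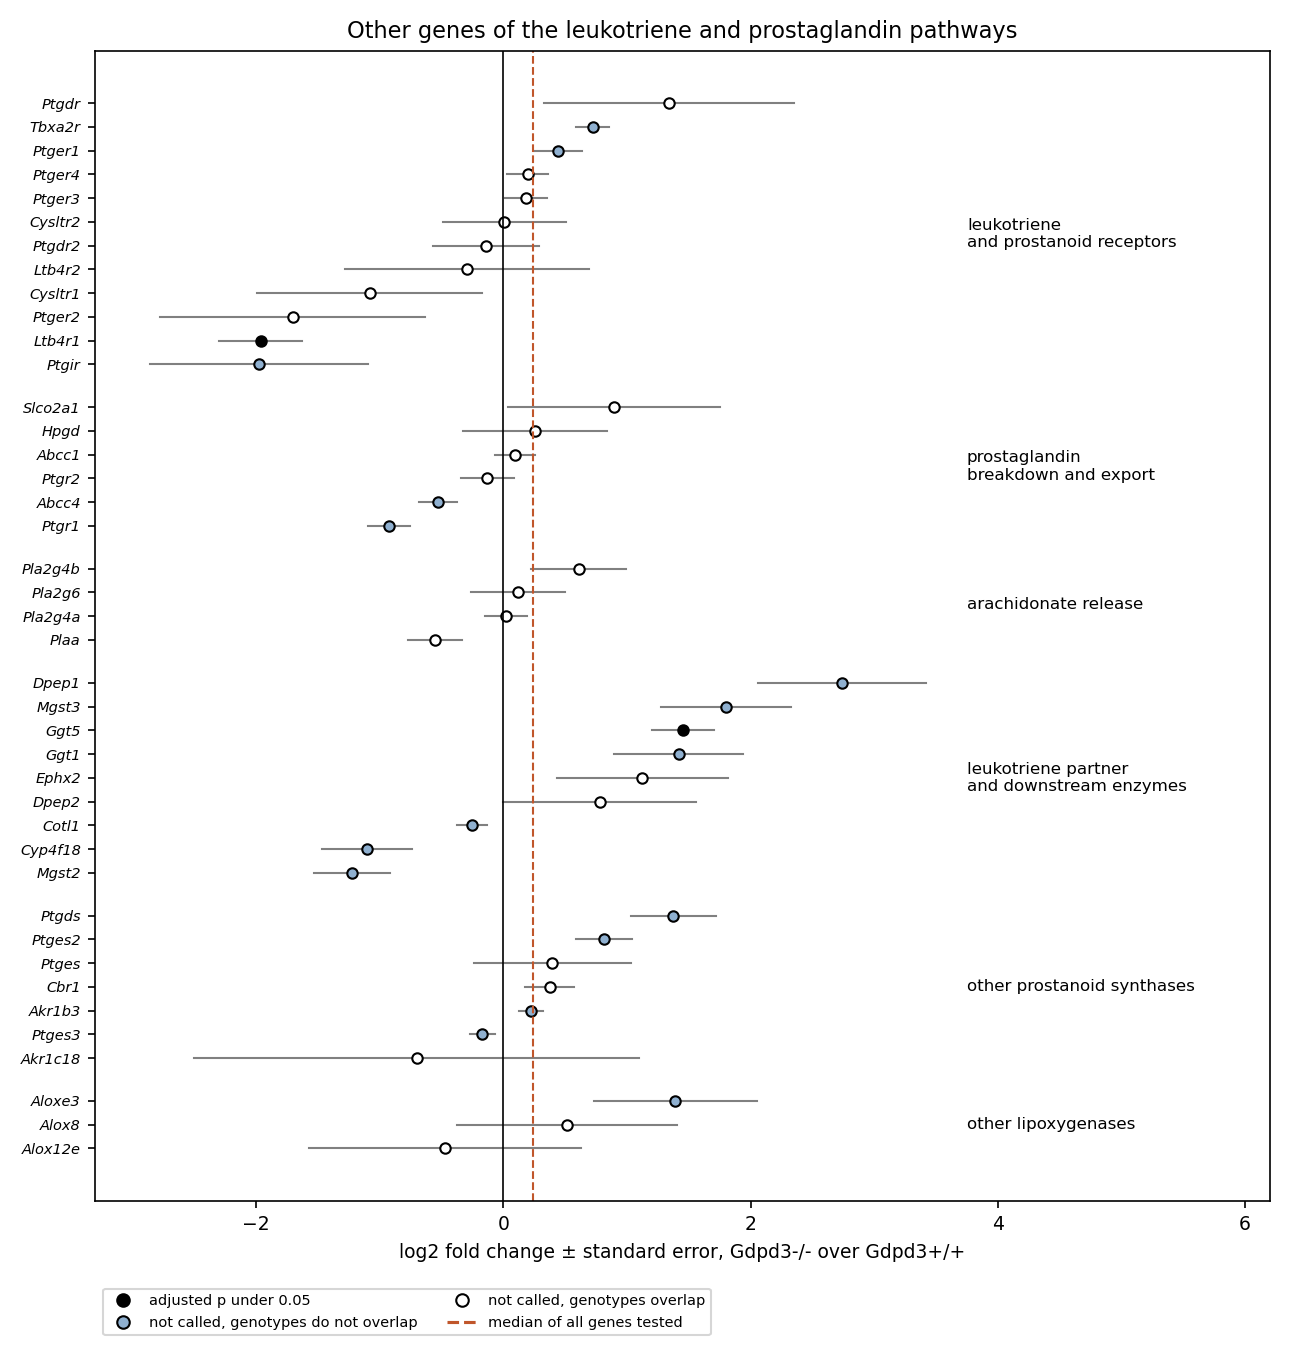
Log2 fold change of Gdpd3-/- over Gdpd3+/+ with its standard error (horizontal axis) for the 41 other pathway genes tested, in 6 lists, with filled black points where the adjusted p was under 0.05, blue where the genotypes did not overlap, and white where they did. The black points are Ltb4r1 at -1.96 and Ggt5 at 1.46.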

How the data were processed

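RNA-Seq of sorted LT-CML stem cells was analysed for 6 libraries, grouped by the genotype in their labels. Libraries had been made without a strand mark from total RNA with a SMART-Seq v4 kit and sequenced as paired reads of 150 bases. The submitters' processing notes name Trimmomatic, Trim Galore, cutadapt 1.16, STAR 2.6.1a, featureCounts 1.6.1, DESeq2 and the build mm9, to which the deposited coordinates belong. The authors deposited FPKM values for 36976 genes. A further deposited table holds a base mean over the libraries, log2 fold changes, their standard errors and Wald statistics, and raw and adjusted p-values, and was not used here.

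FPKM times gene length came to whole numbers, within 0.01, of covered bases in each library, which gave the depths. Reads were not counted from them, and the number of independent molecules behind low values is unknown. Genes averaging at least 0.05 FPKM were tested on the log2(FPKM + 0.1) scale with limma 3.58.1 (R 4.3.3), with genotype as the single term and a variance trend on intensity. A fold change on this scale understates the change of low genes, and folds in FPKM are ratios of means. The Benjamini-Hochberg adjustment ran over 24689 genes, with calls at 0.05. Single values were compared in Python 3.11.15 by 2-sided exact permutation tests of means, with 20 assignments and a smallest p of 0.1. The fit was tested on simulated data.

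The genes named are the 10 enzymes, genes of the pathway lists that passed the test or did not overlap, Gdpd3, and the 3 nearest profiles of Alox5 and Alox15. Alox12e, Pla2g4a, Dpep2, Cysltr1, Ptger2, Plaa, Flt3, Cd48, Mpo, Nkg7, Gzma, Trbc1, Ly6g and Retnlg were chosen once their values had been seen. So were Cpa3, Hdc, Pax5, Ms4a1, Pf4, Ppbp, Gp6 and Gm16641. The members and all lists were chosen with earlier results of these data known. Alternatives tried were quantile normalization, TMM scaling, array weights, a fit without the intensity trend, pseudocounts of 0.01 and 1, dropping the filter or raising it to 1 FPKM, and omitting each library in turn.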

Additional observations from a re-analysis of the deposited data

How the results depend on the processing

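No paired analysis was possible because the genotypes share no replicate number. Over the enzymes and alternatives, 125 of 139 fitted changes kept their direction and their side of the threshold, 5 gained a call, 4 lost it and 5 turned, all 5 of them for Hpgds. Its log2 fold change of 0.07 became -0.14 with TMM scaling and -0.33 with quantile normalization, and ran from -0.35 to 0.88 with each library left out.

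The enzymes called numbered 1 in all 6 libraries (Lta4h). They numbered 2 with a pseudocount of 0.01 or with genes averaging 1 FPKM or more (Lta4h and Ltc4s), 0 without an intensity trend, and 0 to 4 with each library left out. The 4 came without Gdpd3-/- replicate 7 (Lta4h, Ltc4s, Alox12 and Alox15), and 0 came without Gdpd3+/+ replicate 1, 2 or 3. The other pathway genes called numbered 2, but 0 with a pseudocount of 1, no filter or no intensity trend, 4 with genes averaging 1 FPKM or more, and 0 to 13 with each library left out, 13 without Gdpd3-/- replicate 7.

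All genes called numbered 422, of which 270 were higher. With TMM scaling 112 were higher and 254 lower, and with quantile normalization 119 and 206. The total was 225 with a pseudocount of 1, 673 with genes averaging 1 FPKM or more, 153 without an intensity trend, 240 with array weights, and 0 to 3413 with each library left out, 3413 without Gdpd3-/- replicate 7 and 0 without Gdpd3+/+ replicate 1. The causes were not tested. Low read numbers limit the precision of Ptgs2, Hpgds, Alox12, Ltc4s, Dpep1, Aloxe3 and Cysltr1, among others.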
